A study of Mus musculus with 12 samples.

Results

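The genes described here are 10 members of the BCL2 family, the proteins that decide at the mitochondrion whether a cell survives or dies: the anti-apoptotic genes Bcl2, Bcl2l1 and Mcl1, the effector genes Bax and Bak1, and the BH3-only genes Bcl2l11, Bid, Bbc3, Pmaip1 and Bmf. They were taken by gene symbol from a table of 32285 genes, and all 10 passed the filter on low counts that left 13367 genes for testing. Their RNA was measured by RNA sequencing in sorted BM progenitors of WT C57BL6/J mice, which carry no transgene or deleted allele in these groups. The groups were Ly6d- CLPs at 1 month of age (1MO CLP), Ly6d- CLPs at 3 months (3MO CLP), Flk2+ MPPs at 1 month (1MO MPP) and Flk2+ MPPs at 3 months (3MO MPP), with 3 libraries in each and 12 in all. Ly6d- CLPs are common lymphoid progenitors sorted without the B-lineage surface marker Ly6d, and Flk2+ MPPs are the multipotent progenitors upstream of them. Both were sorted from lineage-depleted BM as Flk2+ CD27+ cells, the CLPs as IL-7R+ and the MPPs as IL-7R- c-Kit+ Sca-1+, so Il7r, Kit and the other genes of the gates follow from the sort and are no findings between the cell types. The libraries of a group are independent experiments, and the cells were sorted mouse by mouse, but whether a library holds 1 mouse or several, and whether a CLP and an MPP library share a mouse, is not given in the sources used here, so p-values measure the spread between these libraries.

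Cells of most tissues keep BAX and BAK, the proteins of Bax and Bak1, in check with anti-apoptotic proteins that hold them or the BH3-only proteins that would switch them on. When BH3-only proteins such as BIM (from Bcl2l11), PUMA (Bbc3) or NOXA (Pmaip1) accumulate, BAX and BAK open the outer mitochondrial membrane, cytochrome c is released, and caspases are activated through the apoptosome. In lymphoid progenitors, IL-7 signaling is known for keeping BCL2 and MCL1 up and BIM down, and loss of BIM or gain of BCL2 partly restores T-cell development in mice that lack the IL-7 receptor.

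Between 8889083 and 20677785 estimated counts were assigned to genes in a library, and in the 4 comparisons of 2 groups the mean totals differed by at most 3776105 (1MO CLPs above 1MO MPPs). Exact permutation tests of these totals gave p from 0.4 to 1, and with 3 libraries against 3 they could not go below 0.1, so no such difference could have passed the threshold. Levels are given as CPM, counts relative to the library's total after TMM scaling, as 1 value per library in the order of the replicate numbers. The 8 CLP markers summed to 6509.7 to 7445 CPM in 1MO CLPs and 6282 to 6887 CPM in 3MO CLPs, against 2256 to 2577 CPM and 2609 to 3064 CPM in MPPs of the same ages, a list that includes Il7r and Flt3 of the gate. The sum of 8 stromal markers was 216 to 602 CPM in 1MO CLPs against 4.74 to 10.2 CPM in 3MO CLPs, 13.2 to 81.1 CPM in 1MO MPPs and 5.88 to 14.7 CPM in 3MO MPPs, with Col1a1 at 0 in 2 of 3 3MO CLP libraries. Ly6d RNA was low but present in every CLP library, at 2.34 to 7.26 CPM at 1MO and 1.03 to 5.55 CPM at 3MO, against 0.0603 to 2.25 CPM and 0 to 0.283 CPM in MPPs. The 8 B-lineage markers summed to 35.4 to 62.4, 17.5 to 29.1, 15.027 to 20.3 and 6.13 to 20.2 CPM in 1MO CLPs, 3MO CLPs, 1MO MPPs and 3MO MPPs, and the 8 erythroid markers to 46.2 to 171, 48.9 to 119, 201 to 478 and 211 to 345 CPM. The 8 plasmacytoid dendritic cell markers, mostly Irf8 and Tcf4, summed to 1738 to 1802, 1524 to 1567, 515 to 598 and 469 to 719 CPM in the same order, the 8 neutrophil and monocyte markers to 189.5 to 216, 202 to 355, 175 to 219 and 221 to 428 CPM, and the 8 T and NK markers to 26.4 to 35.3, 17.1 to 29.4, 32.8 to 40.984 and 30.1 to 35.3 CPM. The median level of Igll1, Ms4a1, Cd3g, Trac and Ncr1 was 0 in all 4 groups. The part of these cells in the differences below was not tested. In bulk libraries, fewer cells of a type and less RNA per cell cannot be told apart.

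Bcl2, Bcl2l11 and Bid were the members that differed between CLPs and MPPs past the threshold, and the 250 bases upstream of 1 RefSeq start of each are printed here so that the letters can be read beside their levels. Bcl2l11 has 2 starts in this table, and the one shown is the first, which holds the element marked. All are on GRCm38.p6, 5′ to 3′ on the strand of the gene, and capitals mark a forkhead element (TGTTTAC, read on both strands).
Bcl2, chr1:106714291-106714540, minus strand: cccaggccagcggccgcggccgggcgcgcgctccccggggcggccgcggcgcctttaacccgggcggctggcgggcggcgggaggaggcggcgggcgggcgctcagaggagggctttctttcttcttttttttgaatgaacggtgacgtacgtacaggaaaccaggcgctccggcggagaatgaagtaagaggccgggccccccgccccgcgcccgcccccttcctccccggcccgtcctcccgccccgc
Bcl2l11, chr2:128125788-128126037, plus strand: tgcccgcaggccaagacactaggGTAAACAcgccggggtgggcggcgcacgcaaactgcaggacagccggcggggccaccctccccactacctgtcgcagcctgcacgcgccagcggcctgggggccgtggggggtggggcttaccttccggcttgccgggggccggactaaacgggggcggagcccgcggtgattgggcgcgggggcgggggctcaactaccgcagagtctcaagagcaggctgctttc
Bid, chr6:120916825-120917074, minus strand: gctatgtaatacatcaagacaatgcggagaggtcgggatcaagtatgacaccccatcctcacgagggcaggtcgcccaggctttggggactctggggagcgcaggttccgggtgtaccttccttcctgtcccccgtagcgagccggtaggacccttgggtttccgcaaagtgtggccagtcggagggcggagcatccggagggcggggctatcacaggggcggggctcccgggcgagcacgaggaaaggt
The Bcl2 window was 74.8% G and C, the Bcl2l11 window 72% and the Bid window 63.6%. The Bcl2l11 window held 1 forkhead element, 227 bases before the start, a sequence that 3.17% of 32851 RefSeq promoters of this length hold, and FOXO factors are known to bind such elements. The window of the second Bcl2l11 start, chr2:128127325-128127574, is not printed, was 73.2% G and C and held 0 forkhead elements. None of these 4 windows held the E-box CANNTG, which 66.2% of promoters hold, or the STAT5 element TTCNNNGAA, which 7.02% hold. Among the other members searched, the E-box was found upstream of at least 1 start of Bcl2l1, Mcl1, Bax, Bbc3 and Bmf, and the forkhead element upstream of 1 of 3 starts of Bbc3, 167 bases before it. Pmaip1 was not searched, so nothing is known here of these elements upstream of it.

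Between CLPs and MPPs, 1 of the 10 members passed an adjusted p of 0.05 in edgeR's test at 1MO and 3 of 10 at 3MO, all higher in CLPs. Of the 13367 genes tested, 5.38% passed at 1MO and 6.07% at 3MO. Bcl2 passed at both ages, and Bcl2l11 and Bid passed at 3MO. The levels of 4 members at 1MO and 5 at 3MO did not overlap between the cell types, beside 24.9% and 21.8% of all genes tested. The median log2 fold change of the members was 0.16 at 1MO and 0.57 at 3MO, beside -0.02 and -0.03 over all genes.

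**Figure D1:**
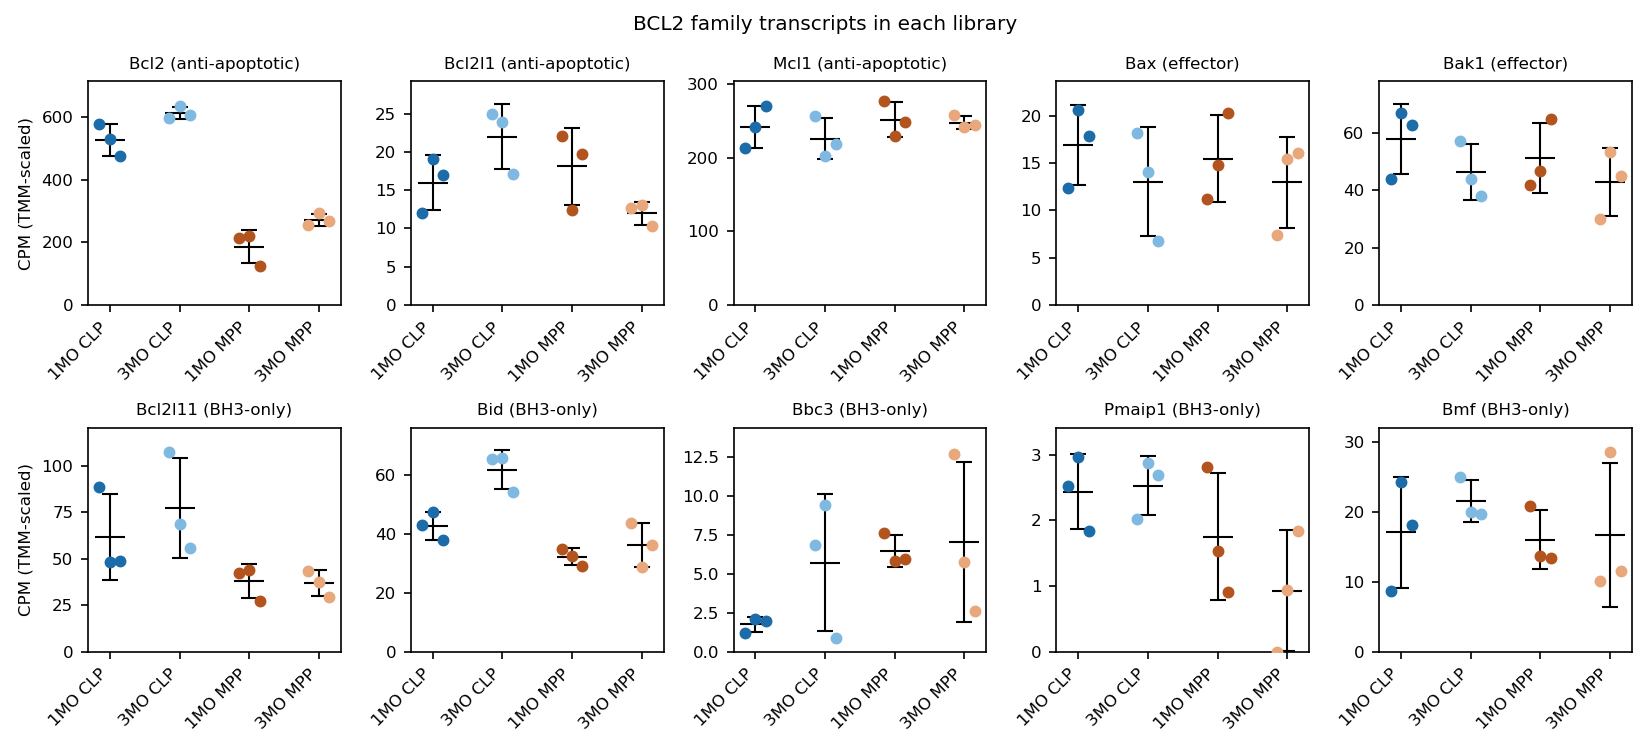
Level of each of the 10 members in each library (CPM after TMM scaling, linear axes from 0, 1 axis per gene). Each point is a library, the long bar is the mean and the whiskers are 1 SD of 3 libraries in each of the 4 groups. Bcl2 lies between 476 and 636 CPM in the 6 CLP libraries and between 125 and 293 CPM in the 6 MPP libraries, while Mcl1 lies between 202 and 277 CPM in all 12.

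Bcl2, the founding anti-apoptotic gene of the family (chr1:106538178-106714274, minus strand, GRCm38), was the member that passed at both ages. Its level was 578, 530.1 and 476 CPM in 1MO CLPs and 213, 219 and 125 CPM in 1MO MPPs. The lowest CLP library was above the highest MPP library, and the difference was 2.84-fold, a log2 fold change of 1.51 ± 0.19 (SE), 95% interval 1.10 to 1.91, with an adjusted p of 1.49e-04 in edgeR's test. At 3MO the levels were 597, 636 and 609 CPM in CLPs and 255, 293 and 270.1 CPM in MPPs. The groups did not overlap at this age either, and the difference was 2.25-fold, a log2 fold change of 1.17 ± 0.19 (SE), 95% interval 0.77 to 1.57, with an adjusted p of 0.00122 in edgeR's test. 1MO MPP library 3 was the low one of its group, and without it the log2 fold change at 1MO was 1.29, still past the threshold.

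Bcl2l1 (chr2:152780668-152831728, minus strand), which encodes BCL-XL, was present at far lower CPM. The levels at 1MO were 11.964, 19.018 and 17.006 CPM in CLPs and 22.1, 12.4 and 19.8 CPM in MPPs, which overlapped, with a log2 fold change of -0.18 ± 0.31 (SE), 95% interval -0.83 to 0.48, with an adjusted p of 0.906 in edgeR's test. At 3MO they were 24.9, 23.9 and 17.1 CPM in CLPs and 12.7, 13.021 and 10.3 CPM in MPPs. The 3 CLP libraries were all above the 3 MPP libraries, but the difference did not pass, with a log2 fold change of 0.87 ± 0.31 (SE), 95% interval 0.21 to 1.53, with an adjusted p of 0.122 in edgeR's test. DESeq2's Wald test gave the same difference an adjusted p of 0.0483.

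Mcl1 (chr3:95658788-95663176, plus strand), whose short-lived protein holds BIM, NOXA and BAK, was close to level across the 12 libraries. It stood at 213, 242 and 270.4 CPM in 1MO CLPs, 257, 202 and 219 CPM in 3MO CLPs, 277, 229.6 and 248 CPM in 1MO MPPs and 258, 242 and 244 CPM in 3MO MPPs. The groups overlapped in every comparison. The log2 fold change between CLPs and MPPs was -0.06 at 1MO, 95% interval -0.38 to 0.26, and -0.13 at 3MO, interval -0.45 to 0.19, with adjusted p of 0.953 and 0.727 in edgeR's test. Of the 10 members, Mcl1 had the narrowest intervals.

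The effectors Bax and Bak1 did not pass in any comparison. Bak1 (chr17:27019810-27029009, minus strand) stood at 43.9, 66.9 and 62.8 CPM in 1MO CLPs, 57.2, 43.9 and 37.956 CPM in 3MO CLPs, 41.8, 46.6 and 64.952 CPM in 1MO MPPs and 30.027, 53.5 and 44.9 CPM in 3MO MPPs. All 4 groups overlapped, and the log2 fold change between CLPs and MPPs was 0.18 (95% interval -0.38 to 0.74) at 1MO and 0.11 (-0.45 to 0.67) at 3MO. Bax (chr7:45461697-45466898, minus strand) was lower, at 12.3, 20.6 and 17.8 CPM in 1MO CLPs, 18.2, 14.048 and 6.80 CPM in 3MO CLPs, 11.2, 14.8 and 20.3 CPM in 1MO MPPs and 7.40, 15.4 and 16.017 CPM in 3MO MPPs. The libraries of a Bax group differed by more than the groups did, and the intervals of the log2 fold change between cell types were -0.73 to 1.00 at 1MO and -0.87 to 0.88 at 3MO, which leave room for a difference of more than 1.5-fold either way. Exons of Bak1 overlap those of Ggnbp1 on the opposite strand, and those of Bax overlap Gm45808 on the same strand. Ggnbp1 stood at 1.31 to 6.76 CPM over the 12 libraries.

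Bcl2l11 (chr2:128126038-128162547, plus strand) encodes BIM, the BH3-only protein best known for lymphocyte death after cytokine loss. At 3MO its level was 107, 68.9 and 55.6 CPM in CLPs and 43.6, 37.4 and 29.6 CPM in MPPs. The groups did not overlap, and Bcl2l11 was 2.10-fold higher in CLPs, a log2 fold change of 1.07 ± 0.30 (SE), 95% interval 0.42 to 1.71, with an adjusted p of 0.0488 in edgeR's test. At 1MO the levels were 88.4, 48.3 and 48.5 CPM in CLPs and 42.3, 43.9 and 27.4 CPM in MPPs. These did not overlap either, with 1 CLP library far above the other 2, and the difference did not pass, a log2 fold change of 0.71 ± 0.30 (SE), 95% interval 0.07 to 1.35, with an adjusted p of 0.245 in edgeR's test. Leaving out 1 library gave 0.36 to 0.85 at 1MO. The first CLP library was the highest at both ages, and without the first 3MO CLP library the log2 fold change at 3MO was 0.77 with an adjusted p of 0.200 in edgeR's test.

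Bid (chr6:120891930-120916853, minus strand), which links death receptors to the mitochondrion once caspase-8 has cut its protein, was likewise higher in CLPs at 3MO. At 3MO its level was 65.4, 65.9 and 54.3 CPM in CLPs and 43.7, 28.8 and 36.1 CPM in MPPs. The groups did not overlap, and Bid was 1.71-fold higher in CLPs, a log2 fold change of 0.77 ± 0.21 (SE), 95% interval 0.32 to 1.22, with an adjusted p of 0.0413 in edgeR's test. At 1MO the levels were 42.9, 47.4 and 38.009 CPM in CLPs and 34.9, 32.5 and 29.2 CPM in MPPs. The CLP libraries were again all above the MPP libraries, and the difference did not pass, a log2 fold change of 0.41 ± 0.21 (SE), 95% interval -0.04 to 0.86, with an adjusted p of 0.386 in edgeR's test. Whether the difference between cell types changed with age was tested as an interaction, which for Bid was 0.36 (95% interval -0.27 to 1.00) and for Bcl2l11 0.36 (-0.54 to 1.26), with adjusted p of 1.0 for both in edgeR's test. Passing at 3MO and not at 1MO was therefore not shown to be a difference between the ages. With 1 library left out, the interaction was 0.22 to 0.52 for Bid and 0.05 to 0.71 for Bcl2l11. The calls of Bcl2l11 and Bid at 3MO lay near the threshold: of the 12 fits with 1 library left out, 3 kept Bcl2l11 past it and 2 kept Bid, with adjusted p of 0.0262 to 0.200 and 0.0229 to 0.153.

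The last exons of Bid and Bcl2l13 lie on opposite strands and share 628 bases. Bcl2l13 stood at 101 to 204 CPM in 1MO CLPs, 74.5 to 129.8 CPM in 3MO CLPs, 80.5 to 109 CPM in 1MO MPPs and 84.3 to 131 CPM in 3MO MPPs. The log2 fold change of Bcl2l13 was 0.80 and -0.27 between CLPs and MPPs at 1MO and 3MO, and with age -0.85 in CLPs and 0.22 in MPPs, none past the threshold, and the part of shared reads in the values of Bid was not tested. The library kit marks strand, and the strand setting of the counting is not given in the sources used here. Bcl2 shares 558 exonic bases with the antisense gene D630008O14Rik, which stood at 0 to 0.247 CPM.

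Bbc3 (chr7:16308393-16318205, plus strand) encodes PUMA, a p53 target that binds every anti-apoptotic member, and its RNA was scarce. At 1MO the levels were 1.17, 2.07 and 1.97 CPM in CLPs and 7.63, 5.82 and 5.90 CPM in MPPs. The 3 CLP libraries were all below the 3 MPP libraries, which made Bbc3 the 1 member whose CLP libraries lay wholly below the MPP libraries, and the difference did not pass, a log2 fold change of -1.88 ± 0.76 (SE), 95% interval -3.50 to -0.26, with an adjusted p of 0.217 in edgeR's test. At 3MO the levels spread widely within both cell types, at 6.86, 9.40 and 0.87 CPM in CLPs and 12.7, 5.76 and 2.62 CPM in MPPs. The groups overlapped, and the log2 fold change was -0.29 with a 95% interval of -1.85 to 1.27.

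Pmaip1 (chr18:66458533-66465565, plus strand), the gene of NOXA, had the fewest counts, 0 to 60 per library. Its levels were 2.52, 2.96 and 1.84 CPM in 1MO CLPs, 2.02, 2.88 and 2.69 CPM in 3MO CLPs, 2.81, 1.54 and 0.904 CPM in 1MO MPPs and 0, 0.935 and 1.84 CPM in 3MO MPPs. The 3MO MPP library without a count allows a level of up to 0.317 CPM, which is 3 counts at its depth and covers counting error only. At 3MO the CLP libraries were all above the MPP libraries, with a log2 fold change of 1.42 ± 1.10 (SE), 95% interval -0.91 to 3.76, with an adjusted p of 0.558 in edgeR's test, and with so few counts and this spread a difference of even several fold was not detectable. Leaving out 1 library gave 0.86 to 2.37, the lowest without 3MO MPP library 1 and the highest without 3MO MPP library 3. Bmf (chr2:118528757-118549687, minus strand), whose protein is released from the cytoskeleton when cells detach, stood at 8.64, 24.3 and 18.1 CPM in 1MO CLPs, 24.9, 19.9 and 19.6 CPM in 3MO CLPs, 20.8, 13.7 and 13.4 CPM in 1MO MPPs and 10.044, 28.5 and 11.5 CPM in 3MO MPPs. All Bmf groups overlapped between the cell types, and the log2 fold changes were 0.10 (95% interval -0.81 to 1.00) at 1MO and 0.36 (-0.54 to 1.26) at 3MO. The value of Bmf at 3MO was 0.10 without 3MO MPP library 1 and 0.99 without 3MO MPP library 2.

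**Figure D2:**
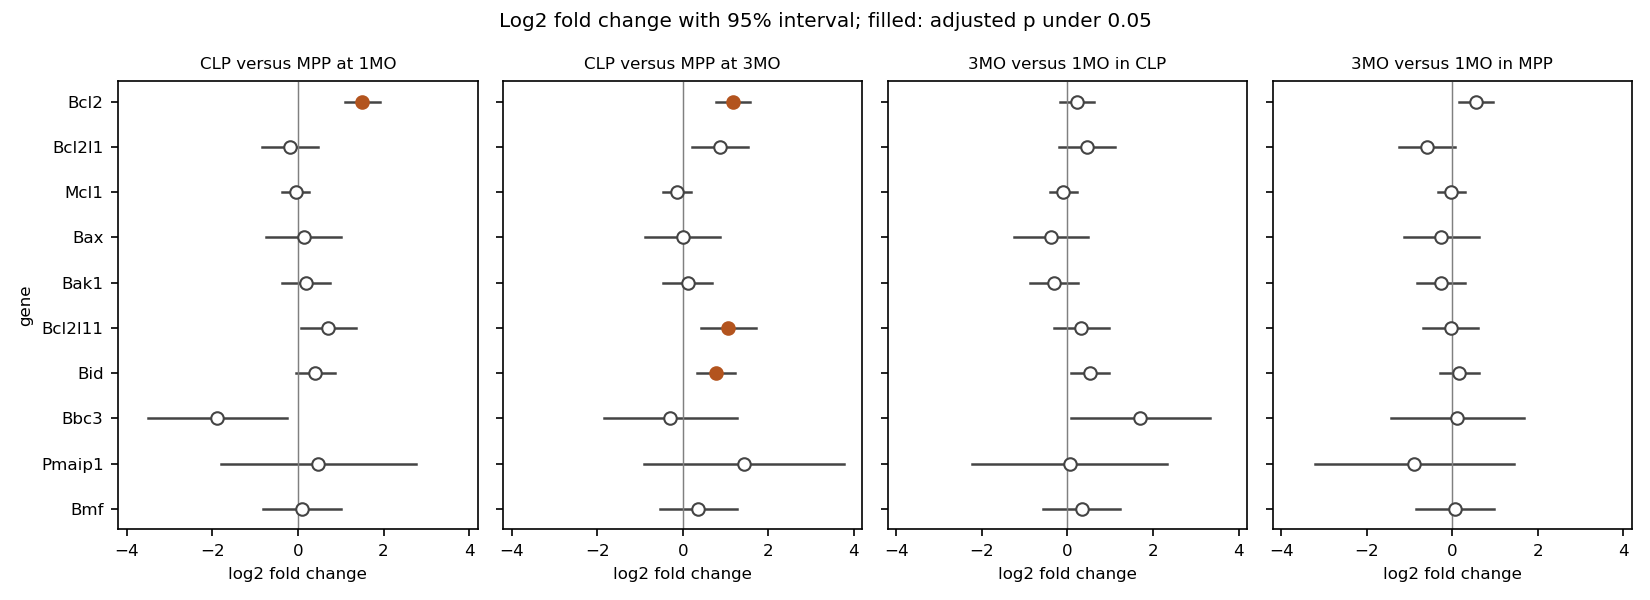
Log2 fold change of each member in the 4 comparisons of 2 groups (horizontal axis), with the 95% interval from edgeR's fit as a line. Filled points passed an adjusted p of 0.05: Bcl2 at 1.51 in CLPs versus MPPs at 1MO, and Bcl2 at 1.17, Bcl2l11 at 1.07 and Bid at 0.77 at 3MO. No point is filled in the panels for age.

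Age was compared within each cell type, which is the comparison the study was designed for, and no member passed. In CLPs 0 of 10 members passed in edgeR's test and 0 in DESeq2's, beside 0.0748% of all genes tested in edgeR's, and 2 members had an unadjusted p under 0.05, as did 789 of the 13367 genes. In MPPs 0 of 10 passed in both tests, beside 0.0224% of all genes, and 1 had an unadjusted p under 0.05, beside 465 of all genes. The test of whether the age effect differed between the cell types gave 0 of 10 by both tools, beside 0% of all genes in edgeR's, and 1 member had an unadjusted p under 0.05, beside 429 of all genes. In CLPs, the 2 members were Bid and Bbc3. Bid stood at 42.8 ± 4.71 CPM (mean and SD) in 1MO CLPs and 61.9 ± 6.53 CPM in 3MO CLPs, without overlap, a log2 fold change of 0.53 ± 0.21 (SE), 95% interval 0.08 to 0.98, with an adjusted p of 0.788 in edgeR's test. Bbc3 stood at 1.17 to 2.07 CPM in 1MO CLPs and at 0.870 to 9.40 CPM in 3MO CLPs, with 1 library of 3MO CLPs below all of 1MO, a log2 fold change of 1.71 ± 0.76 (SE), 95% interval 0.09 to 3.32, with an adjusted p of 0.836 in edgeR's test. Of the marker sums given above, those of the stromal, B-lineage and plasmacytoid dendritic cell lists were lower in all 3MO CLP libraries than in 1MO CLPs, and their part in these differences was not tested.

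The levels of 2 of the 10 members in CLPs and 1 in MPPs did not overlap between the ages, beside 10.6% and 8.57% of all genes tested. Bcl2 was higher at 3MO than at 1MO in every library of both cell types, without a call in either. In MPPs the log2 fold change was 0.55 ± 0.19 (SE), 95% interval 0.16 to 0.95, with an unadjusted p of 0.00929 and an adjusted p of 1.0 in edgeR's test. In CLPs it was 0.22 ± 0.19, interval -0.18 to 0.61, with an adjusted p of 0.927. In MPPs the sums of the neutrophil and monocyte markers and of the CLP markers were also higher in all 3MO libraries than at 1MO, and their part was not tested. 1MO MPP library 3 counted here too, and without it the log2 fold change in MPPs was 0.33. Bcl2l1 stood at 15.996 ± 3.63 CPM in 1MO CLPs and 21.965 ± 4.26 CPM in 3MO CLPs, and at 18.1 ± 5.06 CPM in 1MO MPPs and 11.995 ± 1.498 CPM in 3MO MPPs, so its means went up with age in CLPs and down in MPPs. The interaction for Bcl2l1 was 1.05 ± 0.44 with an unadjusted p of 0.0294 and an adjusted p of 1.0, and the libraries of the ages overlapped within each cell type.

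The age intervals show how much the data could have missed. Mcl1 was held closest, to -0.42 to 0.22 in CLPs and -0.34 to 0.30 in MPPs on the log2 scale. Bak1 had a log2 fold change of -0.32 (-0.88 to 0.24) in CLPs and -0.26 (-0.82 to 0.31) in MPPs, and Bax of -0.38 (-1.25 to 0.49) and -0.25 (-1.12 to 0.62). Bcl2l11 had 0.32 (-0.31 to 0.96) in CLPs and -0.04 (-0.68 to 0.60) in MPPs. Bmf had 0.33 (-0.57 to 1.23) and 0.06 (-0.84 to 0.97). Single libraries moved these values: leaving out 1 gave, for age in CLPs, 0.0092 to 0.67 for Bcl2l11, 0.0143 to 0.68 for Bmf and -0.70 to -0.0767 for Bax. In MPPs Bid had 0.17 (-0.28 to 0.62) and Bbc3 0.12 (-1.44 to 1.67). Bcl2l1 had 0.45 (-0.20 to 1.11) in CLPs and -0.60 (-1.26 to 0.07) in MPPs. Pmaip1 had 0.05 (-2.22 to 2.32) in CLPs and -0.89 (-3.22 to 1.43) in MPPs, where 1 library had no count and its levels overlapped between the ages. The median over the 10 members was 0.27 in CLPs and -0.03 in MPPs, beside -0.01 and -0.01 over all genes tested.

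Levels of different genes were compared per kb of all exons of a gene, since a longer RNA yields more counts. On this scale Mcl1 and Bcl2 led in CLPs, with Mcl1 at 70.8 and Bcl2 at 57.6 CPM per kb at 1MO and Bcl2 at 67.042 and Mcl1 at 66.1 CPM per kb at 3MO. In MPPs Mcl1 was far ahead, at 73.6 CPM per kb at 1MO and 72.4 at 3MO, with Bcl2 at 20.3 and 29.8. Bak1 followed on this scale at 17.8 to 24.048 CPM per kb over the 4 groups, and in 1MO MPPs it was level with Bcl2. Bid stood at 9.07 to 17.4, Bax at 8.21 to 10.7 and Bcl2l11 at 4.59 to 9.62 CPM per kb. Bcl2l1, Bmf, Bbc3 and Pmaip1 took the last 4 places in every group, from 4.79 CPM per kb (Bcl2l1 in 3MO CLPs) down to 0.339 (Pmaip1 in 3MO MPPs). With the median coding transcript as the length, Mcl1 still led in 3 groups and Bcl2 in 3MO CLPs, and Bbc3 moved up from rank 9 to rank 7 in 1MO MPPs and was at rank 7 on both scales in 3MO MPPs. On that scale Bid took rank 3 in both 3MO groups, at 45.4 CPM per kb in CLPs and 26.6 in MPPs, above Bak1 at 28.2 and 26.014. Neighbors such as Mcl1 and Bcl2 in CLPs, or Bcl2l1 and Bmf, lay within the spread between libraries and the choice of length.

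**Figure D3:**
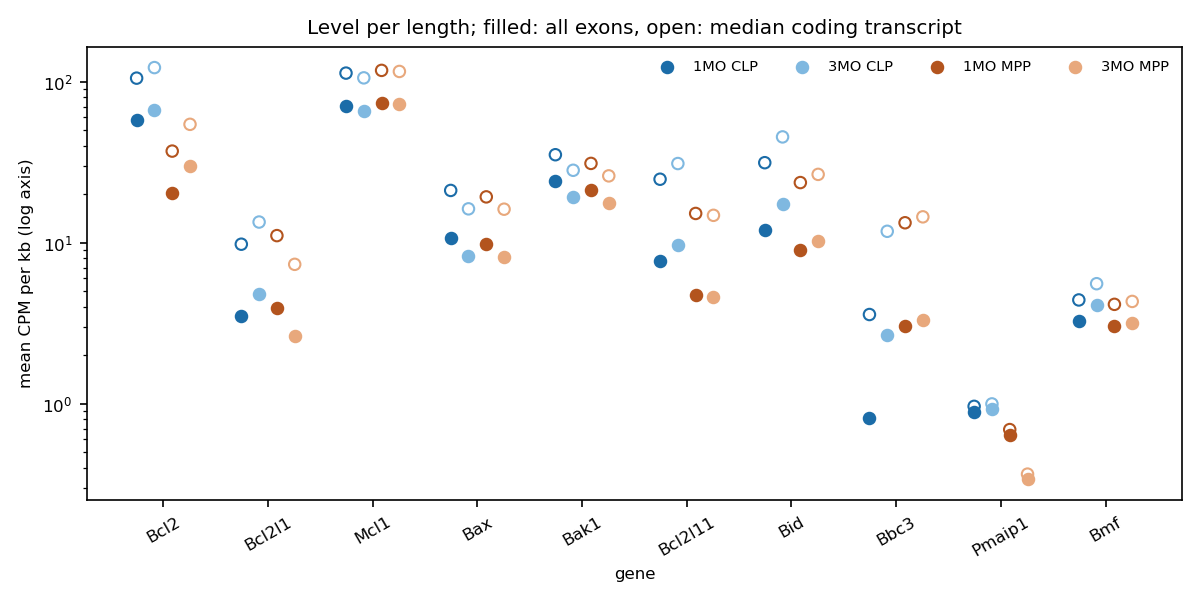
Mean CPM per kb (log axis) of each member in the 4 groups. Filled points use all exons of a gene as its length and open points the median coding transcript. Mcl1 lies between 66.1 and 73.6 CPM per kb of exons in the 4 groups, and Bcl2 between 20.3 in 1MO MPPs and 67.042 in 3MO CLPs.

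Ratios of 2 members within a library do not depend on how libraries are scaled, and are given as log2 ratios of estimated counts, per library and with no test. Bcl2 to Mcl1, the anti-apoptotic members with the most RNA, was 1.44, 1.13 and 0.82 in 1MO CLPs and 1.22, 1.65 and 1.48 in 3MO CLPs. The MPP libraries had -0.38, -0.06 and -0.98 at 1MO and -0.02, 0.28 and 0.15 at 3MO. All 6 CLP libraries were above all 6 MPP libraries. Bcl2 to Bcl2l11, the anti-apoptotic gene to that of BIM, was 2.71, 3.46 and 3.30 in 1MO CLPs, 2.47, 3.21 and 3.45 in 3MO CLPs, 2.33, 2.32 and 2.20 in 1MO MPPs and 2.55, 2.97 and 3.19 in 3MO MPPs. This ratio was higher in CLPs than in MPPs at 1MO without overlap, and it overlapped between the cell types at 3MO. In MPPs the 3MO libraries were all above the 1MO libraries, with means of 2.90 ± 0.33 and 2.28 ± 0.08 (SD).

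Bcl2 to Bcl2l1 was 5.60, 4.80 and 4.81 in 1MO CLPs, 4.58, 4.74 and 5.15 in 3MO CLPs, 3.27, 4.15 and 2.67 in 1MO MPPs and 4.33, 4.49 and 4.72 in 3MO MPPs, so the 1MO MPP libraries were below all others. Bax to Bak1 was the steadiest ratio between groups, with means of -1.78 ± 0.07, -1.93 ± 0.48, -1.75 ± 0.13 and -1.77 ± 0.27 (SD) in 1MO CLPs, 3MO CLPs, 1MO MPPs and 3MO MPPs. Mcl1 to Pmaip1, the pair of MCL1 and the BH3-only protein that marks it for degradation, had means of 6.66 ± 0.48, 6.48 ± 0.43 and 7.34 ± 0.75 in the first 3 of these groups. In 3MO MPPs the 2 libraries with a Pmaip1 count gave 8.03 and 7.03. Bcl2l11 to Bmf had means of 1.92 ± 1.26, 1.80 ± 0.30, 1.24 ± 0.38 and 1.29 ± 0.86, and its groups overlapped.

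**Figure D4:**
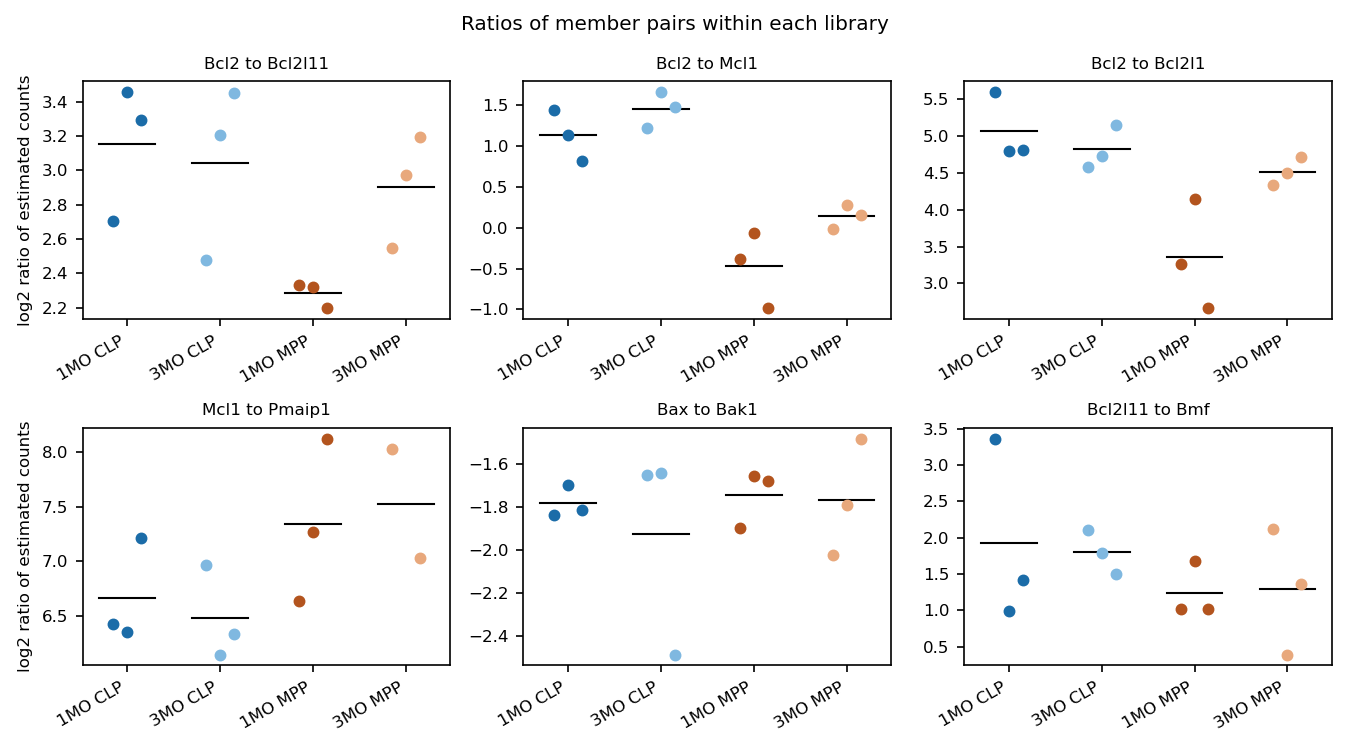
Log2 ratio of the estimated counts of 2 members within each library (vertical axes do not start at 0), 1 panel per pair. Points are libraries and bars the means of 3 libraries, or of 2 for Mcl1 to Pmaip1 in 3MO MPPs. Bcl2 to Mcl1 lies between 0.82 and 1.65 in the CLP libraries and between -0.98 and 0.28 in the MPP libraries.

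The rest of the death pathway was read from 5 lists of genes. In edgeR's test of all 13367 genes, 5.38% and 6.07% were called between the cell types at 1MO and 3MO. With age, 0.0748% were called in CLPs and 0.0224% in MPPs. Past an unadjusted p of 0.05 were 2118 and 2540 genes between the cell types, and 789 and 465 with age. Of 15 other BCL2 family genes, 9 passed the filter on low counts and 0 passed edgeR's test in any comparison, with 1 past an unadjusted p of 0.05 in each of the CLP versus MPP comparisons, 1 for age in CLPs and 0 for age in MPPs. Bcl2l13, which encodes a mitochondrial protein with roles in mitophagy, had the smallest p with age in CLPs, at -0.85 ± 0.28 (SE) with an adjusted p of 0.678, followed by Bad, whose BH3-only protein is switched off by AKT, at -0.58 ± 0.35. Of 19 genes of the apoptosome, caspases and their inhibitors, all were tested and 0 passed in any comparison, with 2 and 3 past an unadjusted p of 0.05 between the cell types at 1MO and 3MO and 0 with age, beside 2118 and 2540 of the 13367 genes between the cell types, and the list's median log2 fold change was 0.06 and 0.11 between CLPs and MPPs at 1MO and 3MO. Birc5, the gene of survivin, and Dffa, the inhibitor of the apoptotic nuclease, had the smallest p with age in CLPs, at -0.55 ± 0.32 and -0.30 ± 0.19. Of 9 genes for mitochondrial partners and for turnover of the proteins, all were tested and 0 passed. For age in CLPs, where 789 of the 13367 genes were past an unadjusted p of 0.05, 1 of the 9 was. This gene, Mtch2, which encodes the mitochondrial receptor of BID, was higher in all 3 3MO CLP libraries than in 1MO CLPs, at 44.3 ± 4.49 CPM and 62.7 ± 6.49 CPM (SD), with 0.50 ± 0.18 and an adjusted p of 0.739, and Dynll1, which encodes a dynein light chain that binds BIM, had -0.52 ± 0.28. Levels of 1 of the 9 partner and turnover genes did not overlap between the ages in CLPs, beside 10.6% of all genes tested. In DESeq2's Wald test, or in another of the alternatives, at most 1 gene of any of these 3 lists passed.

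Of 16 targets of p53, 15 were tested, and 2 were higher in CLPs at 1MO and 1 at 3MO, with none lower, beside 5.38% and 6.07% of all genes called in either direction. Cdkn1a, which encodes the cell cycle inhibitor p21, stood at 39.6 ± 6.02 CPM (SD) in 1MO CLPs and 7.85 ± 0.897 CPM in 1MO MPPs, a log2 fold change of 2.34 with an adjusted p of 1.42e-04 in edgeR's test. At 3MO it stood at 34.5 ± 5.10 CPM and 10.037 ± 3.44 CPM, 1.78 with an adjusted p of 0.00127. Trp53inp1, whose protein acts with p53 in stress, had 0.80 with an adjusted p of 0.0105 at 1MO and 0.38 with 0.247 at 3MO. The list's median was 0.06 at 1MO and 0.03 at 3MO, beside -0.02 and -0.03 over all genes. With age in CLPs 0 of 15 passed, beside 0.0748% of all genes, and 1 had an unadjusted p under 0.05, beside 789 of the 13367 genes. The smallest p of the list were those of Sesn2, a stress-induced regulator of mTORC1, at 0.84 ± 0.40 with an adjusted p of 0.843 in edgeR's test, and of Eda2r, a TNF receptor family gene, which stood at 0 to 0.0494 CPM in 1MO CLPs and 0 to 1.98 CPM in 3MO CLPs.

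Of 14 genes of the cytokine and kinase pathways that feed the family, all were tested, and at 1MO 2 were higher and 5 lower in CLPs, against 1 higher and 3 lower at 3MO, beside the same 5.38% and 6.07% of all genes. Il7r, at 5.19 and 5.02, and Kit, at -1.32 and -1.65, are genes of the sorting gates. Jak3, the kinase on the common cytokine receptor chain, stood at 150.025 ± 18.6 CPM (SD) in CLPs and 243 ± 16.6 CPM in MPPs at 1MO, -0.70 with an adjusted p of 0.0201 in edgeR's test, and had -0.69 with 0.0208 at 3MO. Il2rg, the common chain itself, had -0.73 with 0.0411 at 1MO and -0.79 with 0.0257 at 3MO. Jak1, the kinase on the IL-7 receptor chain, did not pass, at -0.17 with 0.763 and -0.31 with 0.332, and is named here after its values were seen. Foxo1 and Foxo3 encode transcription factors that AKT keeps out of the nucleus and that are known to switch on Bcl2l11, and FOXO1 also Il7r. They passed in opposite directions at 1MO. Foxo1 had 0.84 with an adjusted p of 0.0334 and Foxo3 -0.73 with 0.00745, and at 3MO neither passed, at 0.14 and -0.41. The seventh gene at 1MO was Pim1, a survival kinase named here after its values were seen, at -0.64 with an adjusted p of 0.0437.

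With age, 0 of the 14 passed in either cell type, with 1 past an unadjusted p of 0.05 in CLPs and 0 in MPPs, and DESeq2's Wald test also called 0. Over all 13367 genes, 0.0748% and 0.0224% were called with age, and 789 and 465 were past an unadjusted p of 0.05. Levels of 2 of the 14 genes did not overlap between the ages in CLPs, beside 10.6% of all genes tested. Foxo1 had the smallest p of the list in CLPs, at 58.5 ± 9.53 CPM (SD) in 1MO and 35.6 ± 2.49 CPM in 3MO, without overlap, -0.72 ± 0.22 (SE) with an adjusted p of 0.598 in edgeR's test, and Kit had -0.29 ± 0.17. The same interaction gave 0 calls in each of the 5 lists with both tools, with 2 genes of the BCL2 family list and 1 of the signaling list past an unadjusted p of 0.05. With 1 library left out at a time, 3 to 7 genes of this list passed at 1MO and 2 to 4 at 3MO, and Il7r and Kit passed in all 12 fits at both ages, as did Foxo3 at 1MO. Il2rg passed in 3 of 12 at 1MO and 7 of 12 at 3MO, Jak3 in 8 and 9 of 12, and at 1MO Foxo1 in 8 of 12 and Pim1 in 4 of 12. Cdkn1a passed in all 12 fits at both ages, and Trp53inp1 in 9 of 12 at 1MO.

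**Figure D5:**
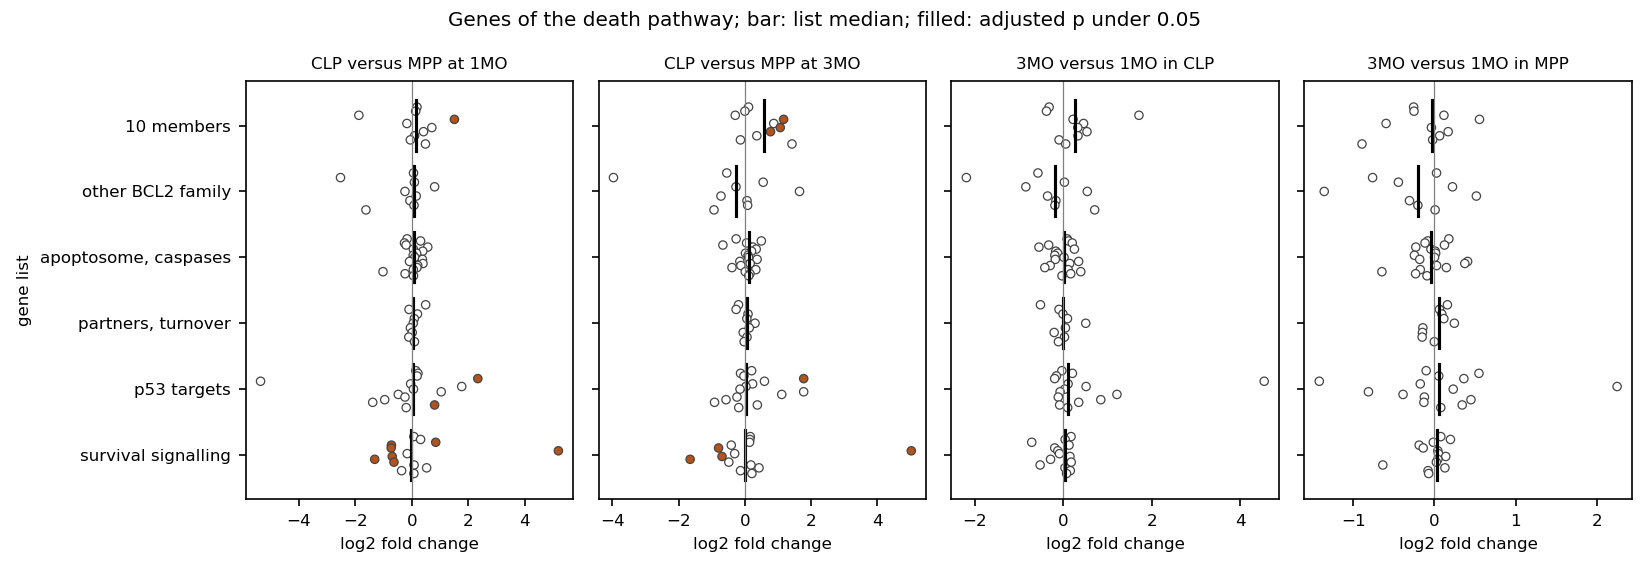
Log2 fold change (horizontal axes, 1 scale per panel) of the 10 members and of the tested genes of the 5 other lists in the 4 comparisons of 2 groups. Each point is a gene, a vertical bar is the median of a list, and filled points passed an adjusted p of 0.05 in edgeR's test. Filled points lie in the rows of the members, the p53 targets and the survival signalling genes in the panels of cell type, and in no row of the panels of age.

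The genes with a pattern most like that of a member were sought by the root mean square difference of log2 CPM over the 12 libraries, each gene centred on its mean, among genes that varied at least 0.8 times as much as the member. For Bcl2 they were Ttyh2 (0.249), 5031439G07Rik (0.25) and Itga4 (0.255), of 4639 candidates. Itga4 encodes the integrin chain of VLA-4. For Bcl2l11 they were Ppfia1 (0.133), Kif24 (0.207) and Maml3 (0.211), of 6306 candidates, and Maml3 encodes a coactivator of Notch. For Bbc3 they were Vmn2r29 (0.509), Atg9b (0.542) and Nbea (0.59), of 3098 candidates, and for Pmaip1 Itgad (0.333), Gm26740 (0.448) and B230307C23Rik (0.467), of 2969. These 2 members, the scarcest, also varied more over the libraries, with an SD of 1.18 and 1.23 against 0.776 for Bcl2 and 0.584 for Bcl2l11. Their differences are therefore not on the same footing as those of Bcl2 and Bcl2l11. All of these differences are descriptions over 12 libraries that share their depths and groups.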

How the data were processed

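RNA sequencing of 12 libraries from sorted mouse BM progenitors was analysed from 1 table that the authors deposited, with an estimated count for each gene and library, adjusted by them for the mean length of its transcripts but not for depth. Per the labels and the study's methods, total RNA was extracted, poly(A) RNA was isolated from it and made into NEBNext Ultra II Directional libraries, and the reads went through quality control (FastQC), UMI extraction (UMI-tools), trimming (Trim Galore), removal of ribosomal RNA (SortMeRNA), alignment (STAR) and quantification (Salmon) on mm10. The study's methods name paired-end or single-end reads and do not say which libraries had which. The annotation release and the strand setting are not given in the sources used here. Because Salmon shares out reads that match several genes, the values are estimates, and near-identical copies can exchange counts. Each of the 12 columns carries the name of 1 sample, 0 were unmatched, and the groups come from the sample titles.

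The estimated counts were rounded to whole numbers for edgeR 4.0.16 and DESeq2 1.42.0 in R 4.3.3. Genes were filtered with filterByExpr, scaled by TMM and tested with edgeR's quasi-likelihood test in 1 fit of 4 groups, with Benjamini-Hochberg adjustment over the 13367 genes tested and a threshold of 0.05. Scripts were tested on simulated data. Totals were compared with two-sided exact permutation tests, for which 0.1 is the smallest p at 3 against 3. No pair of replicates held identical values. Total counts of 8889083 to 20677785 per library set the precision, and intervals and floors cover the spread in the fit or counting error only. Members were matched by symbol, and 38 symbols occurred more than once in the table, none of them a member. GENCODE M21 on GRCm38 held 32235 of the 32285 identifiers and gave coordinates and lengths, and RefSeq on GRCm38.p6 gave the promoters of 9 members. The promoter of Pmaip1 was left out of the search.

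The members and the lists of genes were chosen with earlier results of these data known, and the lists were written from general knowledge. All members are named with values. From each other list, up to 6 genes past the threshold in at least 1 comparison and the 2 with the smallest p with age in CLPs are named, and for the 4 members with the largest SD the 3 genes of the most similar pattern. Pim1 and Jak1 were named outside this rule, once their values were known. The markers of 8 cell types were CLP, MPP, B, T and NK, neutrophil and monocyte, erythroid, stromal and plasmacytoid dendritic cell lists, and the 8 MPP markers summed to 1834 to 2174, 1639 to 1991, 2552 to 2689 and 2382 to 2868 CPM in 1MO CLPs, 3MO CLPs, 1MO MPPs and 3MO MPPs. Of these 8, 6 had a negative log2 fold change between CLPs and MPPs at each age. The other 2, Mpo and Csf1r, had higher means in CLPs. Mpo stood at 921, 815, 604 and 612 CPM in the same order, and Csf1r at 98.1, 80.1, 38.5 and 34.2 CPM.

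Results were recomputed with DESeq2's Wald test, with size factors from DESeq2, with all genes that had a count, with genes of at least 10 counts throughout, with a block for the replicate number or for CLPs and MPPs of 1 age and number, with counts thinned to the lowest total, with the 6 libraries of a comparison alone, with a prior count of 2 for the ratios, and without each library in turn. The flow cytometry, transplantation and thymus data of the study were not used here.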

Additional observations from a re-analysis of the deposited data

How the results depend on the processing

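Bcl2 passed the threshold in CLPs versus MPPs in all 20 alternative fits at each age, with log2 fold changes of 1.29 to 1.64 at 1MO and 1.12 to 1.23 at 3MO when 1 library was left out. The 3 members called at 3MO became 1, Bcl2, with thinned libraries and with only the 6 libraries compared, 2 without a filter and 4, with Bcl2l1 added, in DESeq2's Wald test, and 1 to 3 with 1 library left out. The fall to 1 followed from leaving out 1MO CLP 2, 1MO CLP 3, 1MO MPP 1, 1MO MPP 2, 3MO CLP 1, 3MO CLP 2, 3MO MPP 2 or 3MO MPP 3. The number of members called did not change at 1MO, where it stayed at 1, or for age and the interaction, where it stayed at 0, in any alternative run. Over all genes, 10 calls for age in CLPs became 65 in DESeq2's Wald test, 46 without a filter, 4 with at least 10 counts in every library and 4 with only the 6 libraries compared, the 3 calls in MPPs became 35, 26, 1 and 4, and the interaction went from 0 to 7 in DESeq2's test, 6 without a filter and 1 without 3MO CLP 3. CLPs versus MPPs went from 719 to 1237 at 1MO and from 812 to 1438 at 3MO in DESeq2's test, and to 435 at 3MO with only the 6 libraries compared. Leaving out 1 library gave 460 to 887 calls at 1MO, 553 to 881 at 3MO, 6 to 10 for age in CLPs and 3 to 5 for age in MPPs.

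Same-numbered libraries correlated at -0.03 to 0.21 in their deviations from the group means, no pair of groups had all 3 numbers over 0.1, and the labels do not say that a number marks a shared experiment. The erythroid marker sum was highest in library 3 of every group, at 171, 119, 478 and 345 CPM in 1MO CLPs, 3MO CLPs, 1MO MPPs and 3MO MPPs. The cause of this pattern was not tested. With the replicate block, 1 and 3 members passed in CLPs versus MPPs, 0 in the other comparisons, and 915, 1007, 11, 3 and 0 of all genes, and Bbc3 and Bmf with age in MPPs turned to -0.106 and -0.0685. With CLPs and MPPs of 1 age and number as the block, Bax in CLPs versus MPPs at 3MO turned to -0.0366. It was -0.00262 with at least 10 counts in every library and -0.00414 without a filter, against 0.00152, and Bcl2l11 with age in MPPs was 0.0408 with thinned libraries.

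None of the values that changed sign was past the threshold. When 1 library was left out, CLPs versus MPPs at 1MO ranged over -0.14 to 0.0269 for Mcl1, -0.0553 to 0.39 for Bax and -0.25 to 0.41 for Bmf, and at 3MO over -0.30 to 0.31 for Bax, -0.0877 to 0.30 for Bak1 and -0.86 to 0.45 for Bbc3. Age in CLPs ranged over -0.12 to 0.22 for Pmaip1 and -1.64 to 6.12 for Eda2r, and age in MPPs over -0.0849 to 0.0509 for Mcl1, -0.44 to 0.0226 for Bax, -0.23 to 0.0973 for Bcl2l11, -0.62 to 0.51 for Bbc3 and -0.57 to 0.32 for Bmf. The interaction ranged over -0.19 to 0.0112 for Mcl1, -0.45 to 0.18 for Bax, -0.28 to 0.12 for Bak1 and -0.0484 to 0.90 for Bmf. The causes were not tested. Pmaip1 could not be fitted with at least 10 counts in every library, and a fit of only the libraries compared was not made for the interaction. Pmaip1 and Bbc3 had 0 to 60 and 11 to 170 counts per library, and Bbc3 also spread from 11 to 170 within 3MO CLPs.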
